A study of Lactuca sativa with 9 samples.

Results

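The circRNAs described here hold 3 or more exons and were the only circRNA of their gene. They were chosen from the circRNA table as exonic circRNAs with an exon number of 3 or more whose gene name stood in no other row. The rule found 364 of 1650 circRNAs (22.1%), or 24.1% of the 1508 exonic circRNAs. A further 248 exonic circRNAs of 3 or more exons came from genes with several circRNAs and were left out. Leaves of the lettuce (Lactuca sativa) cultivar Hong Kong Glass were collected 24 d after emergence from plants grown at 60 (Las_WL, low), 175 (Las_ML, medium) or 340 (Las_SL, high) µmol per square metre per second, with 3 libraries per group. The groups differed by light only and carried no other label, and the study describes each sample as cut and mixed leaf material. As the RNA came from bulk leaves, fewer cells that make a circRNA and less of it per cell cannot be told apart. Exon numbers chose the circRNAs, so exon number is a description here and not a result.

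CircRNAs arise when the end of an exon is joined to the start of the same or an earlier exon, a reaction called back-splicing. The product is a closed loop without free ends, which makes it resistant to exonucleases such as RNase R. The 2 splice sites that are joined lie next to the introns on either side of the circularized exons, and in animals pairing between such introns is known to favour back-splicing. A loop of several exons also holds internal introns in its genomic span, and whether these were removed was not measured here. Back-spliced reads cover the junction only and say nothing on the exons within the loop.

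All values of circRNAs rest on few reads. The libraries held 398 to 1036 back-spliced reads, and the lowest number was that of Las_WL replicate 1. This library stood apart, with a summed level of 49 histone genes of 11564 FPKM (fragments scaled to transcript length and library size), against 984 to 3607 FPKM in the other 8 libraries. Its 10 genes for replication licensing summed to 270.4 FPKM. The other libraries differed within groups, with 29.3 to 64.6 FPKM in Las_ML replicates 2 and 3 and Las_SL replicates 1 and 3. Las_WL replicates 2 and 3, Las_ML replicate 1 and Las_SL replicate 2 had 1.62 to 5.86 FPKM. In Las_WL replicate 1 the 42 light-harvesting and Rubisco small subunit genes summed to 19834 FPKM, against 24284 to 56480 FPKM elsewhere. These are markers of dividing cells and of leaf mesophyll, and of each list 0 genes were at 0 in all libraries. Calls and called values that rest on Las_WL are therefore also given without this library, and the part of these markers in the results was not tested.

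Most circRNAs were close to the lower limit of the rule. Of the 364 circRNAs, 190 (52.2%) held 3 exons, 79 (21.7%) held 4 and 43 (11.8%) held 5. Another 52 held 6 or more, and 12 held 10 or more. The genomic span, counted from the start to the end of the back-spliced region, was 370 to 7833 bases, with a median of 874.5 and quartiles of 628.5 and 1306. The median was 418 bases in the 327 2-exon circRNAs and 237 bases in the 278 1-exon circRNAs chosen by the same rule on genes. Spans over 1000 bases were found in 148 of the 364 circRNAs (40.7%), in 8.26% of the 2-exon and in 1.80% of the 1-exon circRNAs. Just inside the limit, 3-exon circRNAs had a median span of 645.5 bases and 2.89 reads on average. Just outside it, 2-exon circRNAs had 418 bases and 2.73 reads. These means rest on few circRNAs, as 61.6% of the 3-exon and 64.5% of the 2-exon circRNAs had a single read. CircRNA184 alone gave 103 of the 549 reads of the 3-exon circRNAs.

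The span grew with the exon number. The median was 921 bases with 4 exons, 1128 with 5, 1260 with 6, 1354 with 7 and 2274 with 8. Across the 364 circRNAs, which all come from the same 9 libraries, Spearman's rho of exon number and span was 0.64. The range within an exon number was wide, and circRNA209, of a gene for a ubiquitin fusion degradation protein, spanned 5774 bases with only 3 exons, in a gene row that merges several gene names.

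**Figure D1:**
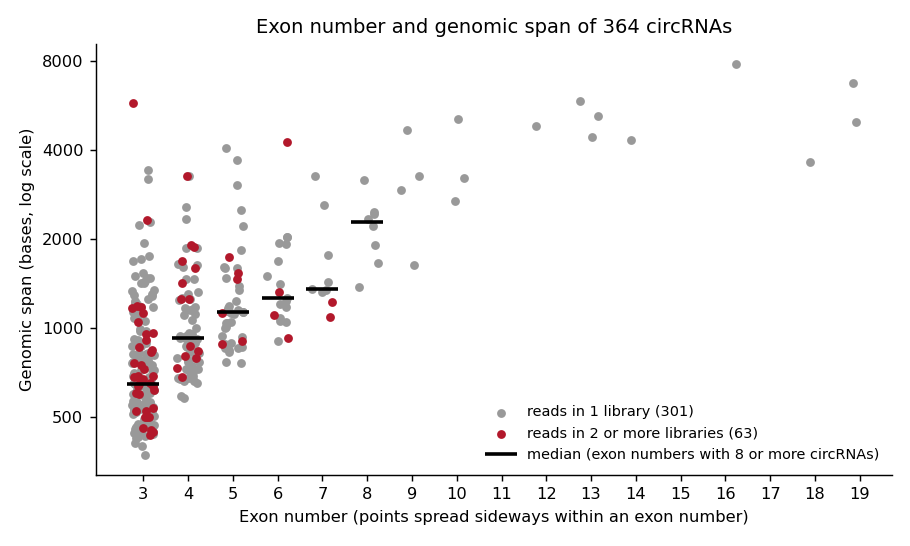
Genomic span in bases (log scale) against exon number of the 364 circRNAs, with a bar at the median of each exon number that has 8 or more circRNAs. Medians lie between 645.5 bases at 3 exons and 2274 bases at 8 exons, and the red points, circRNAs with reads in 2 or more libraries, stop at 7 exons.

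Most of the longest loops were seen in 1 library, and circRNA209 with its 6 reads in 3 libraries was an exception. CircRNA3 of LOC111880896, annotated to the RNA polymerase III complex that makes tRNA, held 19 exons over 6755 bases (NW_019679358.1:500265-507019 of Lsat_Salinas_v7) and had 1 read in Las_SL replicate 1. CircRNA706 of LOC111907368, annotated to protein targeting to the vacuole, also held 19 exons, over 4970 bases, and had 1 read in Las_ML replicate 1. CircRNA563 of LOC111882495, a regulatory subunit of protein phosphatase 6, had the longest span, 7833 bases and 16 exons, and its 3 reads all came from Las_SL replicate 3. CircRNA1008, with 13 exons over 5872 bases, had 1 read in Las_ML replicate 2. The other 2 circRNAs with the most exons, circRNA931 (18 exons) and circRNA1214 (14 exons, of a pleiotropic drug resistance transporter gene), had 1 read each. At the other end, circRNA701 of a gene for a leucine-rich repeat receptor kinase, circRNA968 and circRNA1298 spanned 370, 396 and 406 bases with 3 exons.

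The circRNAs lay on 305 scaffolds, 261 of which carried 1 of them, and no scaffold carried more than 5. The plus strand held 173 and the minus strand 191. None of the 364 overlapped another circRNA of the table, which the choice of genes with 1 circRNA largely set in advance. All had a listed intron on both sides.

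The flanking introns were mostly short. The median was 240 bases upstream (quartiles 98.8 and 503.8) and 174 bases downstream (88 and 371.2), which was close to the 2-exon circRNAs with 230 and 168 bases and above the 1-exon circRNAs with 105 and 93 bases. Both introns were under 200 bases in 123 of the 364 circRNAs (33.8%), against 37.6% of the 2-exon and 54.0% of the 1-exon circRNAs. An intron over 1000 bases stood on at least 1 side in 47 (12.9%) and on both sides in 13 (3.57%). The upstream intron was the longer of the pair in 206 (56.6%), against 53.5% of the 2-exon and 51.4% of the 1-exon circRNAs. Among the 63 circRNAs with reads in 2 or more libraries this share was 49.2%. The lengths of the pair had a Spearman's rho of 0.56 across the 364 circRNAs. These are descriptions of regions, without a test.

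CircRNAs seen in more libraries stood between longer introns, mainly on the downstream side. For the 63 circRNAs with reads in 2 or more libraries the downstream median was 306 bases and the upstream median 262 bases, against 148 and 229 bases for the 301 seen in 1 library. Both introns were under 200 bases in 17.5% of the 63 and in 37.2% of the 301, and an intron over 1000 bases was found beside 23.8% and 10.6%. Short introns on both sides were also less frequent for 2-exon circRNAs seen in 2 or more libraries (26.2%) than for those seen in 1 (40.5%). For 1-exon circRNAs the measures differed, with short introns on both sides in 57.1% and 53.2%, and an intron over 1000 bases beside 14.3% of those seen in 2 or more libraries and 8.11% of those seen in 1. The number of reads and the downstream intron had a Spearman's rho of only 0.19 over the 364 circRNAs, which is weak in counts this sparse. With the upstream intron it was 0.06 and with the sum of both introns 0.10.

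**Figure D2:**
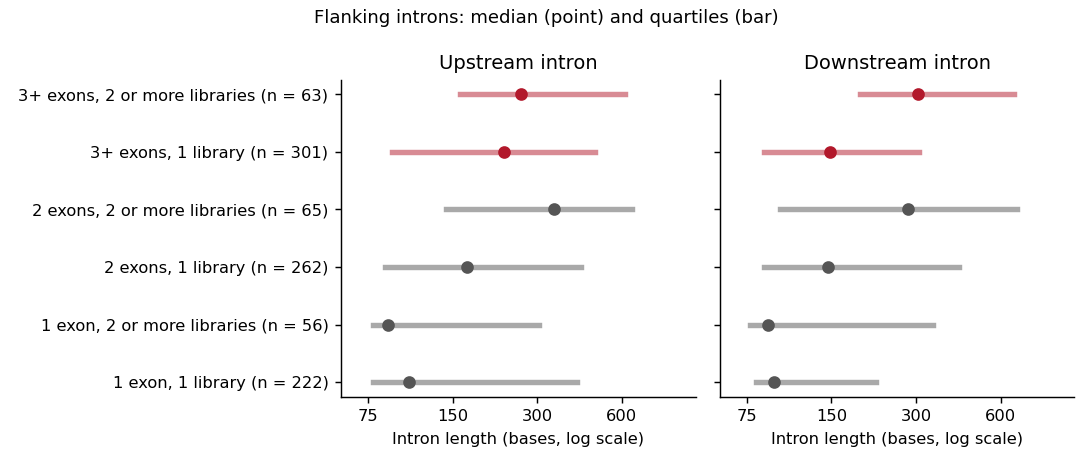
Length of the upstream and the downstream intron in bases (log scale), as median (point) and quartiles (bar), for circRNAs of 3 or more exons (red) and for 2-exon and 1-exon circRNAs (grey), split by the number of libraries with a read. Downstream medians were 306 bases for circRNAs of 3 or more exons seen in 2 or more libraries and 148 bases for those seen in 1.

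Named circRNAs showed the extremes. CircRNA184 of LOC111889346, a gene described as a concanavalin A-like lectin and annotated with kinase activity, lay between introns of 16209 and 10032 bases and had the most reads of all, 103. CircRNA412 of the protein kinase gene LOC111914158 followed an intron of 17712 bases, with 1036 bases downstream, and its 10 reads came from 7 libraries. CircRNA306 of LOC111916063 had the longest intron, 21216 bases downstream, but only 1 read, and its gene was the least abundant, with a mean of 0.224 FPKM. The shortest pairs were 65 and 66 bases at the 18-exon circRNA931, 70 and 65 bases at circRNA551 and 69 and 66 bases at circRNA685, and each of these had 1 read. Of the 10 circRNAs with the most reads, 5 had an intron over 1000 bases and 1 had both introns under 200 bases.

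Reads were concentrated in a few circRNAs. The 364 circRNAs together held 969 of 6836 back-spliced reads (14.2%), and 239 of them (65.7%) had a single read. Only 12 had 10 or more reads, the 4 most abundant held 249 reads (25.7% of the 969), and 63 (17.3%) had reads in 2 or more libraries. This share was 19.9% of 2-exon and 20.1% of 1-exon circRNAs. It was 19.5% among circRNAs of 3 exons, 17.7% with 4, 13.95% with 5 and 11.5% with 6 or more, and no circRNA of 8 or more exons was seen in more than 1 library.

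Just 3 of the 364 circRNAs were seen in all 9 libraries. CircRNA203 of LOC111896959 (NW_019683270.1:524391-525988, 4 exons), an AMP-binding protein annotated to fatty acid metabolism in the chloroplast, had 5, 10 and 9 reads in Las_WL, 6, 8 and 3 in Las_ML, and 9, 6 and 5 in Las_SL. Its gene row also holds LOC111896906, so the annotation may belong to either. The groups overlapped, and the log2 fold change was 0.41 ± 0.58 (SE) for Las_SL vs. Las_ML and 0.72 ± 0.56 for Las_WL vs. Las_ML. CircRNA170 of LOC111892874 (3 exons), for Peroxin-3, which takes part in the import of proteins into the peroxisome membrane, had 1, 2 and 3 reads in Las_WL, 4, 3 and 6 in Las_ML, and 3, 1 and 2 in Las_SL. Here too the groups touched or overlapped, with the highest value in Las_ML. The remaining one, circRNA186, is described with the comparisons.

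The other circRNAs among the 10 with the most reads were seen in 4 to 8 libraries. CircRNA111 of LOC111912980, whose protein is hypothetical, had 6, 2 and 3 reads in Las_WL, 3, 3 and 0 in Las_ML, and 2, 9 and 4 in Las_SL, so that all groups overlapped. CircRNA356 of the protein kinase gene LOC111897892 had 0, 5 and 1 reads in Las_WL, 4, 0 and 6 in Las_ML, and 0, 2 and 0 in Las_SL. CircRNA468 of LOC111900486, an acetyl-CoA acetyltransferase of the mevalonate route to isoprenoids, had 2, 0 and 0 reads in Las_WL, 7, 3 and 0 in Las_ML, and 0, 3 and 0 in Las_SL. Both had their highest single value in Las_ML but also a library without a read there. CircRNA494 of LOC111909597, for cyclin H1-1, the partner of the kinase that phosphorylates RNA polymerase II, had 0, 0 and 2 reads in Las_WL, 0, 0 and 4 in Las_ML, and 0, 3 and 5 in Las_SL. CircRNA531 of LOC111891652, the alpha subunit of the translocon-associated protein complex of the endoplasmic reticulum, had 2, 7 and 0 reads in Las_WL, 0, 1 and 0 in Las_ML, and 0, 0 and 1 in Las_SL. None of these 5 was called in a comparison by edgeR.

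Fewer circRNAs of 3 or more exons were seen in low light, where Las_WL lay below Las_ML but overlapped with Las_SL. Of the 364, Las_WL libraries had a read for 53, 48 and 44, a mean of 48.3 ± 4.51 (SD, n = 3). Las_ML libraries had a read for 76, 56 and 55 (62.3 ± 11.9), and Las_SL libraries for 56, 66 and 51 (57.7 ± 7.64). Las_WL replicate 1, the library with the fewest back-spliced reads, had the most of its group, and without it the Las_WL mean was 46.0. Per 100000000 uniquely mapped reads, the circRNAs had 117.5, 131.0 and 135.2 back-spliced reads in Las_WL (127.9 ± 9.26), 186.2, 147.7 and 178.7 in Las_ML (170.9 ± 20.4) and 159.1, 181.9 and 144.5 in Las_SL (161.8 ± 18.9). Each Las_WL library was below each library of the other groups, also with Las_WL replicate 1 left out (133.1). All circRNAs together were also lowest in Las_WL, with 577.3 to 1073 in Las_WL, 1104 to 1191 in Las_ML and 1118 to 1452 in Las_SL, so this was not particular to circRNAs of 3 or more exons. No p is given, since the circRNAs were chosen with earlier results known.

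Set against all back-spliced reads of a library, the groups overlapped. The share was 20.4%, 12.2% and 14.9% in Las_WL, 15.6%, 12.7% and 16.2% in Las_ML, and 13.3%, 12.5% and 12.9% in Las_SL. The 3 Las_SL libraries lay close together, within the range of Las_WL. The highest share, in Las_WL replicate 1, had an exact binomial interval (Clopper-Pearson, 95%) of 16.5% to 24.6%, which covers counting error only.

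**Figure D3:**
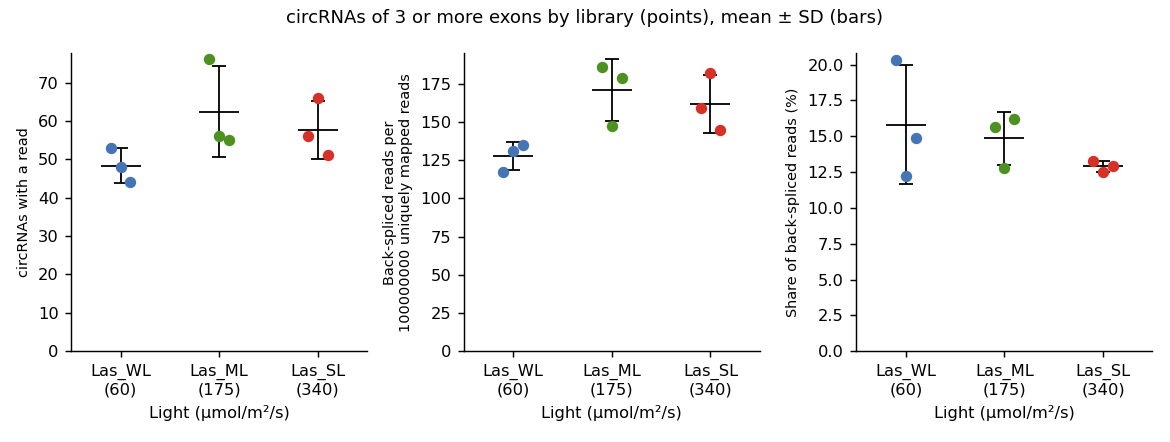
Values of the circRNAs of 3 or more exons in each library (points) with mean ± SD (bars) by light group, with light in µmol per square metre per second on the x axis: number with a read, back-spliced reads per 100000000 uniquely mapped reads, and share of all back-spliced reads in %. Reads per uniquely mapped reads were lowest in the 3 Las_WL libraries (117.5 to 135.2), whereas Las_WL overlaps with Las_SL in the number with a read and with both groups in the share.

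Most circRNAs were seen in 1 light group, as in the table at large. Reads were found for 128 circRNAs in Las_WL, 152 in Las_ML and 152 in Las_SL, of which 91, 110 and 114 were seen in that group only. In all, 315 (86.5%) were seen in 1 group, 30 in 2 groups and 19 in all 3, against 82.1% of all 1650 circRNAs in 1 group. Of the 315, 239 had a single read, which by itself allows 1 group only. Reads in 2 or more libraries of 1 group and none elsewhere were found for 14 of the 364 circRNAs. The same held for 52 of all 1650 circRNAs and for 50 of the 1508 exonic circRNAs, so this was not particular to circRNAs of 3 or more exons.

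These 14 were spread over the groups. In Las_WL they were circRNA1244 and circRNA1370, and the gene of circRNA1370 has a CID domain, known to bind the tail of RNA polymerase II. In Las_ML they were circRNA687, circRNA718 of a gene for VPS35A, a subunit of the retromer that recycles sorting receptors, circRNA798 of an IQ-DOMAIN gene for a calmodulin-binding protein, circRNA801 of a PCI domain gene, circRNA849 of a gelsolin domain gene, and circRNA923 of a glycoside hydrolase gene. In Las_SL they were circRNA108, circRNA147 of a pectinesterase gene, circRNA155 of a major facilitator superfamily gene, circRNA185, circRNA239 of a CorA-like magnesium transporter gene, and circRNA403. CircRNA1244, circRNA155 and circRNA687 were seen in every library of their group, with 1, 1 and 6 reads in Las_WL for circRNA1244, 1, 2 and 1 in Las_SL for circRNA155 and 1, 1 and 2 in Las_ML for circRNA687. Of the 14, only circRNA1244 and circRNA185 were called in a comparison, and for the other 12, with 2 to 4 reads each, a difference was not detectable at this depth.

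The 3 comparisons asked which circRNAs changed with light. The quasi-likelihood test of edgeR was run on the counts of 347 circRNAs with reads in 2 or more libraries, 63 of which were among the 364, so that 301 could not be tested. A call needed a p of at most 0.05 before adjustment and a log2 fold change of at least 1 in either direction. The p-values were adjusted by Benjamini-Hochberg over all 347. The comparisons share libraries, so their calls are not independent of each other. For Las_SL vs. Las_ML 4 of the 63 were called, where 2.31% of all tested circRNAs were called. Of these 4, 2 were higher (1.44% of all tested) and 2 lower (0.865%). For Las_WL vs. Las_ML 4 were called (3.17% of all tested), with 1 higher (0.288%) and 3 lower (2.88%). For Las_SL vs. Las_WL 5 were called (3.75%), with 3 higher (3.17%) and 2 lower (0.576%). The 13 calls fell on 7 circRNAs, and only circRNA784 passed the adjusted threshold. The median log2 fold change of all tested circRNAs was 0.16 (Las_SL vs. Las_ML), −0.60 (Las_WL vs. Las_ML) and 0.66 (Las_SL vs. Las_WL), and that of the 63 was 0.09, −0.63 and 0.00 in this order.

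CircRNA784 was the clearest change. It comes from LOC111876071, described as an aldolase-type TIM barrel protein, a fold shared by many metabolic enzymes, and holds 7 exons over 1090 bases (NW_019678332.1:319024-320113) between introns of 578 and 2954 bases. None of the Las_SL libraries had a read of it, while Las_ML libraries had 14, 12 and 9 reads and Las_WL libraries 0, 4 and 0 reads. Every Las_ML library was above every library of the other groups. The log2 fold change was −6.42 ± 1.17 for Las_SL vs. Las_ML (SE, edgeR, adjusted p = 1.49e-05). With 3 reads allowed over the Las_SL libraries it was 10.2-fold lower there, which leaves out the counting error of the Las_ML reads. For Las_WL vs. Las_ML it was −2.79 ± 0.72 (adjusted p = 0.0411), with 7.48 times the reads in Las_ML (95% counting interval 2.67 to 29.0), but DESeq2 did not call it (−2.72). Leaving out Las_WL replicate 1, which had no read, gave −2.22, with the unadjusted call kept and an adjusted p of 0.522. Leaving out Las_WL replicate 2, the only one of its group with reads, gave −6.43. The remaining call, for Las_SL vs. Las_WL (−3.63 ± 1.67, adjusted p = 0.581), rested on the 4 reads of Las_WL replicate 2, and was −4.21 without Las_WL replicate 1. Over all alternatives the adjusted p ran between 1.85e-08 and 0.716 for Las_SL vs. Las_ML, with the highest value without Las_SL replicate 3, and between 3.22e-04 and 1 for Las_WL vs. Las_ML. The gene itself did not show this pattern, with 41.2, 51.0 and 44.9 FPKM in Las_SL against 47.0, 36.7 and 33.2 FPKM in Las_ML, groups that overlap.

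CircRNA184 (NW_019681428.1:893329-893943), 615 bases of 3 exons between the long introns named above, was lower in low light. It had 0, 3 and 9 reads in Las_WL, against 34, 10 and 10 in Las_ML, and 13, 13 and 11 in Las_SL. The reads of all Las_WL libraries were below those of the other groups, and the 34 reads of Las_ML replicate 1 stood alone. Per 100000000 uniquely mapped reads, however, Las_WL replicate 3 (14.7) lay above Las_ML replicate 2 (13.4), so that Las_WL overlapped with Las_ML but not with Las_SL (17.5 to 19.1). The log2 fold change was −1.86 ± 0.55 for Las_WL vs. Las_ML (edgeR, adjusted p = 0.130) and 1.54 ± 0.57 for Las_SL vs. Las_WL (adjusted p = 0.519). Las_ML had 3.85 (95% counting interval 2.03 to 7.90) and Las_SL 3.01 (1.53 to 6.34) times the reads of Las_WL. Leaving out Las_ML replicate 1 gave −1.16 and ended the call for Las_WL vs. Las_ML, and leaving out Las_WL replicate 1 gave 0.94 and ended it for Las_SL vs. Las_WL, as did leaving out Las_SL replicate 3 with 1.58. Without Las_WL replicate 1 the value for Las_WL vs. Las_ML was −1.26, with the call kept. Its gene had 2.24, 5.98 and 3.95 FPKM in Las_SL, against 0.246, 1.92 and 1.22 FPKM in Las_WL, and a log2 fold change of 1.27 ± 0.36 on the log2(FPKM + 1) scale (limma, adjusted p = 0.0712), or 0.92 without Las_WL replicate 1. CircRNA and gene thus had the same direction, but the gene was not called.

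CircRNA185 and circRNA186 come from the neighbouring genes LOC111876585 and LOC111876584, which carry the same description, a hypothetical protein annotated to the plasma membrane and to endocytosis. Their regions lie 40718 bases apart on NW_019678376.1 on the plus strand, and the gene table merges both genes into 1 row, so that their FPKM values cannot be told apart. Reads of near-identical copies may be split between them. CircRNA186 had 8, 9 and 4 reads in Las_SL, against 1, 3 and 1 in Las_WL, and 9, 9 and 2 in Las_ML. Las_SL and Las_WL did not overlap, whereas Las_ML replicate 3 lay within the range of Las_WL. The log2 fold change was 1.96 ± 0.73 for Las_SL vs. Las_WL (edgeR, adjusted p = 0.519), with 1.67 without Las_WL replicate 1, and −1.69 ± 0.74 for Las_WL vs. Las_ML (adjusted p = 0.621). Leaving out Las_WL replicate 1 or 3 or Las_ML replicate 1 or 2 ended the call for Las_WL vs. Las_ML, with values of −1.41, −1.49, −1.52 and −1.39. CircRNA185 had 2, 0 and 4 reads in Las_SL and none in the other groups. Its fitted log2 fold change was 4.16 ± 1.995 for Las_SL vs. Las_ML (edgeR, adjusted p = 0.763) and 4.16 ± 2.09 for Las_SL vs. Las_WL (adjusted p = 0.581). With 3 reads allowed over a group without reads, its level in Las_SL was still 2.28-fold that in Las_ML and 1.95-fold that in Las_WL. These folds leave out the counting error of the Las_SL reads. Its calls were lost when any of 5 of the 9 libraries was left out for Las_SL vs. Las_ML, and any of 8, Las_WL replicate 1 among them, for Las_SL vs. Las_WL. The merged gene row was at 7.32, 6.93 and 8.58 FPKM in Las_SL, against 4.65, 4.44 and 5.40 FPKM in Las_WL, and its log2 fold change was 0.56 ± 0.15 (limma, adjusted p = 0.0593).

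The remaining 3 called circRNAs had 7 to 9 reads each. CircRNA1244 of LOC111879238 (7 exons), whose product resembles SCD2, a coiled-coil protein of membrane traffic known from Arabidopsis, had 1, 1 and 6 reads in Las_WL and none in the other groups. Its fitted log2 fold change was 4.61 ± 1.92 for Las_WL vs. Las_ML (edgeR, adjusted p = 0.621) and −4.61 ± 1.99 for Las_SL vs. Las_WL (adjusted p = 0.581). With the same 3 reads allowed it was still 3.12-fold higher in Las_WL than in Las_ML, and 2.73-fold lower in Las_SL than in Las_WL. The counting error of its few Las_WL reads is left out. Without Las_WL replicate 3, which held 6 of its 8 reads, neither call stood, while leaving out Las_WL replicate 1 kept both. The call for Las_WL vs. Las_ML was also lost without Las_ML replicate 1 or 2, that for Las_SL vs. Las_WL without Las_SL replicate 2 or 3, and both under DESeq2, with at least 10 reads and with replicate numbers as a block. CircRNA707 of LOC111915996 (3 exons), annotated as an auxin transporter, was without reads in Las_SL, whereas Las_ML libraries had 2, 2 and 2 reads and Las_WL libraries 1, 0 and 2. Its fitted log2 fold change was −3.97 ± 1.965 for Las_SL vs. Las_ML (edgeR, adjusted p = 0.763). With 3 reads allowed in Las_SL, circRNA707 was still 1.75-fold lower there than in Las_ML, again without the counting error of the Las_ML reads. Its call was lost without any of 7 of the 9 libraries. CircRNA81 of LOC111876998 (3 exons), of a family of quinoprotein alcohol dehydrogenase-like genes, had 6, 0 and 0 reads in Las_SL, against none in Las_ML, and 1, 0 and 0 in Las_WL. All 6 reads came from Las_SL replicate 1, so this call rests on a single library. The fitted log2 fold change was 4.10 ± 1.97 for Las_SL vs. Las_ML (edgeR, adjusted p = 0.763). The FPKM values of these 3 genes overlapped between the groups compared, with log2 fold changes of 0.31 ± 0.42 (LOC111879238, Las_WL vs. Las_ML), −0.15 ± 0.54 (LOC111915996, Las_SL vs. Las_ML) and 0.06 (LOC111876998, Las_SL vs. Las_ML). That of LOC111879238 was −0.12 without Las_WL replicate 1.

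**Figure D4:**
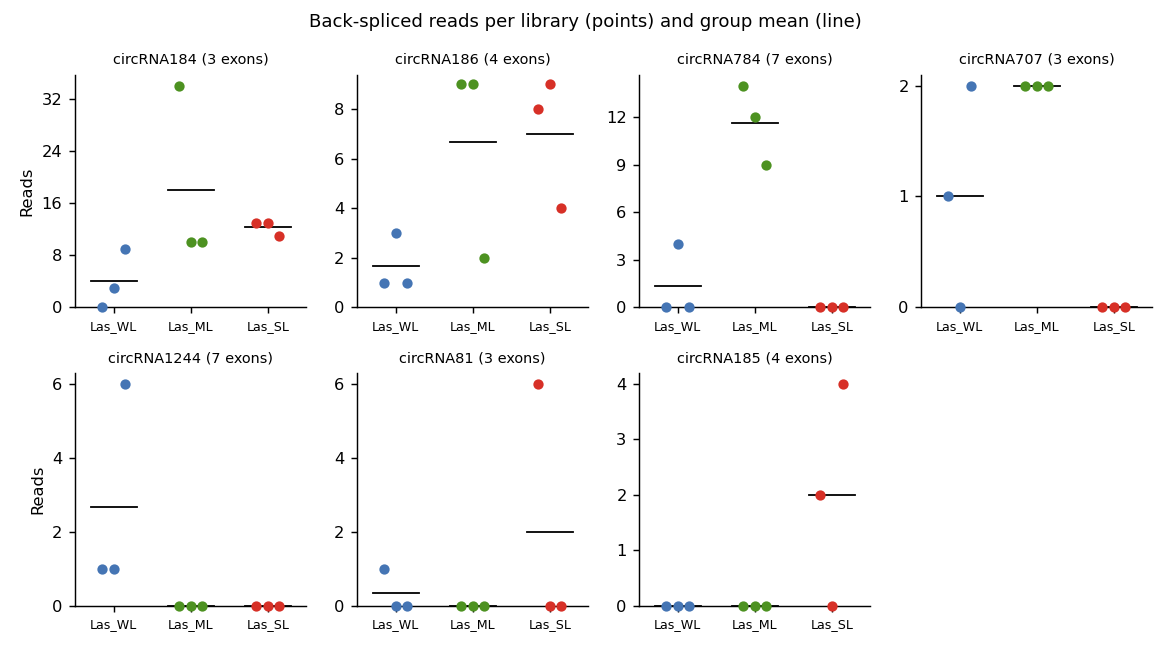
Back-spliced reads in each library (points) and group mean (line) of the 7 called circRNAs, by light group. CircRNA784 had 9 to 14 reads in Las_ML and none in Las_SL, and circRNA81, circRNA185 and circRNA1244 each owe most of their reads to 1 or 2 libraries.

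The number of calls changed with single libraries and with the tool, as it did over all circRNAs tested. For Las_SL vs. Las_ML the 4 calls fell to 1 without Las_ML replicate 1, and to 2 without Las_ML replicate 2 or 3 or Las_SL replicate 1 or 3. For Las_WL vs. Las_ML the 4 calls fell to 1 without Las_ML replicate 1, and were 4 without Las_WL replicate 1. For Las_SL vs. Las_WL the 5 calls fell to 3 without Las_WL replicate 1 or 2 or Las_SL replicate 1 or 2, and to 1 without Las_SL replicate 3. DESeq2 called 1 (Las_SL vs. Las_ML), 1 (Las_WL vs. Las_ML) and 0 (Las_SL vs. Las_WL) of the circRNAs. These were circRNA784 for Las_SL vs. Las_ML and circRNA184 for Las_WL vs. Las_ML.

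The parental genes, whose mRNA was measured as FPKM in the same libraries, had a higher median level than all genes tested. The median of their mean FPKM was 11.6 (quartiles 5.96 and 24.4), against 12.7 for 2-exon, 12.03 for 1-exon and 14.2 for all exonic circRNAs and 5.36 for the 26145 genes with a mean FPKM of 0.5 or more. Of the 364, 203 (55.8%) had a gene at 10 FPKM or more, against 33.4% of those 26145 genes, and 4 had a gene below 0.5 FPKM. Their levels ranged between 0.224 and 1219 FPKM.

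The most abundant genes did not have the most circRNA reads. The highest level was that of LOC111889738, for glycolate oxidase, the peroxisomal enzyme of photorespiration, with a mean of 1219 FPKM. Its circRNA1253 of 9 exons had 1 read, in Las_WL replicate 1. The others were LOC111887445 for methionine synthase (396 FPKM, circRNA907, 1 read), LOC111878087 for an Mpv17/PMP22 membrane protein (293 FPKM, circRNA604, 1 read), LOC111880175 for a protein with a LOV domain, which senses blue light (251 FPKM, circRNA1416, 2 reads), and LOC111902323 (232.5 FPKM, circRNA968, 1 read). By contrast, the genes of the 10 circRNAs with the most reads were at 2.00 to 37.1 FPKM, with a median of 7.07. Over the 364 circRNAs, Spearman's rho of reads and FPKM was −0.02. If linear RNA was digested before sequencing, as the study states, these FPKM values rest on what was left of it.

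The parental genes covered much of cell biology, and 229 of the 364 fell into at least 1 of 10 function lists made from the descriptions, GO terms and KEGG pathways. The lists overlap and count terms, so a gene annotated to the chloroplast need not serve photosynthesis. Of all 364 circRNAs, in lists or not, 80 had a gene described as hypothetical, uncharacterized, unnamed or unknown, and 5 had no description. The chloroplast and photosynthesis list held 65 (17.9%, against 11.2% of the 26145 genes), with circRNA184 and circRNA203 the most abundant. Membrane transport held 43 (11.8%, against 6.32%), with circRNA356 and circRNA707. Transcription factors and chromatin held 36 (9.89%, against 8.02%), with circRNA494 and circRNA609 of a SET domain gene, a domain of histone methyltransferases.

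Vesicle traffic and cytoskeleton held 35 (9.62%, against 4.10%), with circRNA186 and circRNA356. RNA processing and binding held 28 (7.69%, against 6.04%), with circRNA494 and circRNA1197, and carbohydrate, cell wall and starch genes numbered 25 (6.87%, against 5.19%), with circRNA319 and circRNA377. Ubiquitin and proteasome genes numbered 21 (5.77%, against 4.88%), with circRNA209 and circRNA443. The protein kinase list held 20 (5.5%, against 2.87%), with circRNA356 and circRNA494. The gene of circRNA494 is for a cyclin and entered this list through its annotation terms. DNA repair and replication held 17 (4.67%, against 1.83%), with circRNA1197 and circRNA286 of a gene for an exonuclease. Translation and tRNA charging held 9 (2.47%, against 2.00%), with circRNA666 of an aminoacyl-tRNA synthetase gene and circRNA801. The shares of 2-exon and 1-exon circRNAs were 12.8% and 12.6% in the chloroplast list and 6.73% and 13.3% in membrane transport. They were 8.6% and 6.5% in vesicle traffic, 3.06% and 4.68% in protein kinases and 1.83% and 1.44% in DNA repair and replication. In transcription factors they were 10.4% and 9.71%, in RNA processing 7.34% and 8.27%, and in carbohydrate genes 7.6% and 7.9%. Ubiquitin genes had 6.42% and 4.68%, and translation genes 2.75% and 2.88%. These shares were not tested.

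Few circRNAs of these lists were called. Membrane transport had circRNA707, vesicle traffic and cytoskeleton had circRNA185 and circRNA186, and the chloroplast list had circRNA184, with the directions given above. The other 7 lists had no called circRNA by edgeR among the 2 to 5 tested in each. Of all parental genes in the 10 lists, only LOC111881152 in the vesicle list and LOC111886016 in the chloroplast list were called, both higher in Las_SL than in Las_WL. Median log2 fold changes of the parental genes in the 10 lists were between −0.04 and 0.23 for Las_SL vs. Las_WL, against 0.18 for all genes tested.

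Parental genes were tested with limma on log2(FPKM + 1), which understates the change of low genes, over all 26145 genes. A call needed both an adjusted p of less than 0.05 and a 1 unit log2 change. Of the 359 parental genes tested, none was called for Las_SL vs. Las_ML, where 0.00382% of all genes were called. An unadjusted p below 0.05 was found there for 10 of the 359, beside 1442 of the 26145 genes. None was called for Las_WL vs. Las_ML, where 0.0% of all genes were called. In that comparison 36 of the 359 had an unadjusted p below 0.05, beside 3604 of the 26145 genes. For Las_SL vs. Las_WL 6 (1.67%) were called, all higher in Las_SL, against 2.93% of all genes called and 2.73% called as higher. The median log2 fold change of all genes was 0.18 in this comparison and −0.13 for Las_WL vs. Las_ML, and that of the 359 was 0.15 and −0.13.

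The largest change was in LOC111884006, a hypothetical protein annotated to the nucleus and host of circRNA1163. It had 87.2, 118 and 80.0 FPKM in Las_SL, against 8.37, 21.0 and 21.8 FPKM in Las_WL, with 49.9, 50.5 and 40.6 FPKM in Las_ML between them. The log2 fold change was 2.50 ± 0.34 (SE, limma, adjusted p = 0.0247). Its circRNA had 3 reads, all in Las_ML replicate 3. LOC111883723, host of circRNA727, shares its row with LOC111883724. The row carries the GO term mismatch repair, which the words of the DNA repair list did not match, and had 6.46, 9.98 and 7.12 FPKM in Las_SL, against 0.811, 1.16 and 3.29 FPKM in Las_WL, a log2 fold change of 1.77 ± 0.34 (limma, adjusted p = 0.0341).

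Changes of the other 4 were smaller. LOC111919945, with a dDENN domain known from regulators of Rab GTPases, had 19.0, 26.1 and 19.97 FPKM in Las_SL, against 6.58, 8.49 and 12 FPKM in Las_WL, and a log2 fold change of 1.20 ± 0.23. Its circRNA521 had 10 reads, with 0, 0 and 1 in Las_SL, against 0, 0 and 3 in Las_WL, and 0, 1 and 5 in Las_ML, and was not called. LOC111886016, annotated to the thylakoid membrane and to porphyrin and chlorophyll metabolism and host of circRNA551, had 56.5, 76.1 and 52.8 FPKM in Las_SL, against 17.4, 29.2 and 35.2 FPKM in Las_WL (1.19 ± 0.27). LOC111881152, described as a Ran GTPase and annotated to exocytosis, had 28.4, 45.5 and 33.6 FPKM in Las_SL, against 12.6, 14.2 and 19.1 FPKM in Las_WL (1.17 ± 0.21), and its circRNA128 had 4 reads, all in Las_SL replicate 1. LOC111896267, annotated to the peroxisome membrane and host of circRNA1303, had 33.4, 50.9 and 35.4 FPKM in Las_SL, against 14.6, 21.3 and 20.2 FPKM in Las_WL (1.05 ± 0.20). In each of the 6 genes Las_SL replicate 2 was the highest and Las_WL replicate 1 the lowest library. The same libraries had the lowest (1.62 FPKM) and the highest (270.4 FPKM) sum of the replication licensing genes, whose part was not tested. Of the circRNAs of these genes only circRNA521 had reads in 2 or more libraries and could be tested, and it was not called.

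**Figure D5:**
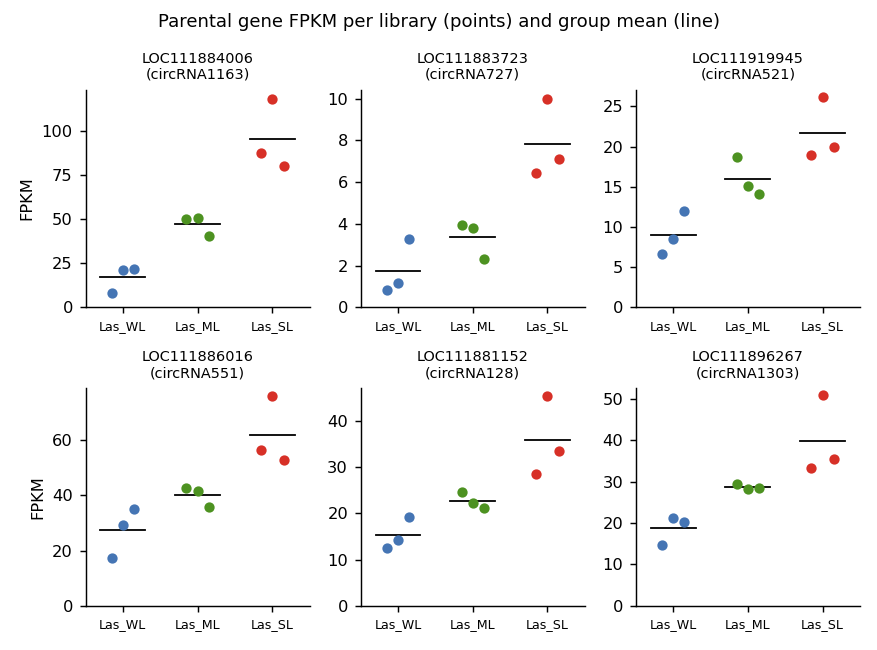
FPKM in each library (points) and group mean (line) of the 6 parental genes called for Las_SL vs. Las_WL, by light group, with the circRNA of the gene in brackets. In each gene all Las_SL libraries lie above all Las_WL libraries. These groups also did not overlap in 105 of the 359 parental genes tested (29.25%) and in 7876 of all 26145 genes (30.12%). Lack of overlap was also part of the rule for naming called parental genes, so it adds no support to the calls. LOC111884006 has 80.0 to 118 FPKM in Las_SL, against 8.37 to 21.8 FPKM in Las_WL.

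The parental calls hung on single libraries, as did those of all genes. Without Las_WL replicate 1 there were 7 calls, but LOC111886016 (0.91) and LOC111896267 (0.89) were no longer among them, since their log2 fold changes were below 1. The other 4 kept their calls without it, with 2.08 for LOC111884006, 1.52 for LOC111883723, 1.05 for LOC111881152 and 1.02 for LOC111919945. Without Las_WL replicate 3 there were 9 calls. Without Las_ML replicate 1 or Las_SL replicate 1 there was 1 call, and without any of the other 5 libraries there was none. Over all genes the 767 calls became 1084 without Las_WL replicate 1 and 960 without Las_WL replicate 3. They fell to 377 without Las_ML replicate 1, 244 without Las_SL replicate 1 and 0 to 11 without any of the other 5.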

How the data were processed

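According to the study, leaf RNA was depleted of rRNA and digested with RNase R, while the sample protocol describes poly(A) selection. The authors mapped reads to Lsat_Salinas_v7 and called circRNAs with CIRCexplorer2, and the submitters' processing notes list Bowtie 0.12.2, HISAT2 2.0, StringTie 1.3.0 and the build mm8. Light levels follow the labels and the methods, and the study swaps Las_SL and Las_WL in 2 places. The deposited circRNA table holds raw back-spliced read counts per library, and other deposited columns hold start, end, exon number and flanking introns. The deposited gene table holds FPKM values computed by the authors, and 9 deposited SRPBM columns were not used. Positions are 1-based.

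Counts were tested with edgeR 4.0.16 (R 4.3.3), with the uniquely mapped reads the study gives as library size, over circRNAs with a read in 2 or more of 9 libraries. FPKM values were tested with limma 3.58.1 (trend) over genes with a mean of at least 0.5. Both fits used all 9 libraries, and adjusted p-values are by Benjamini-Hochberg over all features. SE of edgeR values were derived from the F statistic. A group without reads was given a floor of 3 reads over the group, and folds against it take the reads of the other group without counting error. Calls used the fitted log2 fold change and not the fold against this floor. Intervals cover counting error only. All 364 circRNAs joined to 363 gene rows, 8 of which hold several gene names. Python 3.11.15 with pandas 2.3.3 was used, and scripts were tested on simulated data.

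Named were the 10 circRNAs with the most reads, all that were called, those in 2 or more libraries of 1 group only, extremes of exon number, span, introns and parental FPKM, the 5 called parental genes with the largest change, and the 2 most abundant of each function list. By rule the groups of the 5 called parental genes did not overlap. LOC111896267 was named after its values were seen. The circRNAs and lists were chosen with earlier results of these data known. The study calls the 3 samples per group biological replicates, and p-values measure the spread between these libraries. No sequences of these regions were used here.

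Alternatives were TMM factors, DESeq2 1.42.0, no filter, at least 10 reads, a replicate block, 6 libraries only and each library left out. For genes they were a pseudocount of 0.1, no filter, a minimum mean of 5 FPKM, quantile normalization, the block, 6 libraries and each library left out.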

Additional observations from a re-analysis of the deposited data

How the results depend on the processing

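Called circRNAs of 3 or more exons numbered 4 (Las_SL vs. Las_ML), 4 (Las_WL vs. Las_ML) and 5 (Las_SL vs. Las_WL). With DESeq2 they numbered 1, 1 and 0. Without a filter there were 2 for Las_SL vs. Las_ML, and with at least 10 reads 1 for Las_SL vs. Las_ML and 3 for Las_SL vs. Las_WL, since fewer could be tested. Leaving out 1 library gave 1 to 5 in each comparison. Calls over all circRNAs tested, 8, 11 and 13 in this order, were 2 in each comparison with DESeq2. With 1 library left out they were 4 to 10, 4 to 13 and 7 to 11. The call of circRNA784 for Las_SL vs. Las_ML held in all 15 alternatives. Replicate numbers did not pair the libraries, as same-numbered libraries had correlations of their deviations between −0.52 and 0.56. With the replicate block the called circRNAs of 3 or more exons numbered 1, 3 and 3 in this order. Called parental genes for Las_SL vs. Las_WL then numbered 0.

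Parental genes called for Las_SL vs. Las_WL numbered 6, with 0 under quantile normalization, 0 with the 6 libraries of the comparison and 0 to 9 with a library left out. Calls over all genes went from 767 to 6, to 1 and to 0 to 1084 in the same settings. In the other comparisons no alternative called a parental gene. No alternative reversed a call. Uncalled parental values near 0 changed sign. With a library left out, the merged row of LOC111876585 and LOC111876584 ranged between −0.101 and 0.0411 (Las_SL vs. Las_ML; 7.7e-04 without Las_SL replicate 1 and 0.0351 without Las_SL replicate 2), LOC111915996 between −0.376 and 0.0350 (Las_SL vs. Las_ML), and LOC111879238 between −0.123 and 0.666 (Las_WL vs. Las_ML) and between −0.755 and 0.0342 (Las_SL vs. Las_WL). LOC111876998 was −0.0171 (Las_SL vs. Las_ML) under quantile normalization.

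With at least 2 reads in the library, 16.7 circRNAs were seen in Las_WL, 20.7 in Las_ML and 19.7 in Las_SL. With a library left out, the number with a read ran from 46.0 to 50.5 in Las_WL, 55.5 to 66.0 in Las_ML and 53.5 to 61.0 in Las_SL, and normalized reads from 124.3 to 133.1, 163.2 to 182.5 and 151.8 to 170.5. Per 1000 back-spliced reads they were 158.1, 148.6 and 129.1, which puts Las_WL highest. This rests on Las_WL replicate 1, as the Las_WL share was 15.8% with it and 13.6% without it, against 14.9% in Las_ML and 12.9% in Las_SL (chosen after seeing the data). Also, without circRNA184 Las_ML was at 148.5 per 100000000 uniquely mapped reads. The median downstream intron was 306 bases for circRNAs in 2 or more libraries, and the medians of span, exon number, upstream intron and parental FPKM stayed within 1.5 times. With 969 reads over 9 libraries, the depth limits every statement on a single circRNA.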
